A study of Homo sapiens with 6 samples.

Results

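The SR and hnRNP genes are the main families of human splicing regulators. They were followed here in A375, an established human melanoma cell line, after 72 h with palbociclib or GSK3326595. Members were taken by symbol, namely all SRSF genes, TRA2A, TRA2B and all HNRNP genes, with pseudogenes left out, a rule that uses no measured value. This gave 39 members among the 28395 gene IDs of the count files, 14 in the SR family and 25 in the hnRNP family. HNRNPA1L3 also has such a symbol in the annotation and was not analysed here. The 6 libraries form 3 groups of 2: cells given 1 µM palbociclib, which blocks the cell cycle kinases CDK4 and CDK6 and is PD991 in the sample titles; cells given 500 nM GSK3326595, which blocks the arginine methyltransferase PRMT5 and is CTX in the titles; and vehicle cells in 0.01% DMSO. All 3 groups come from a single cell line, and the labels do not say whether replicates 1 and 2 are separate cultures. If they are not, the spread behind each p-value is technical only.

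SR proteins carry RNA recognition motifs and a tail rich in arginine and serine, and they mostly promote the use of nearby exons. That tail is phosphorylated by SRPK and CLK kinases and recognised by the import receptor transportin-SR. The hnRNP proteins coat nascent transcripts, many of them hold back splice sites, and several carry arginine-glycine stretches that arginine methyltransferases modify. Many genes of both families also control their own output through exons or introns whose inclusion sends the transcript to nonsense-mediated decay. The counts used here are sums per gene, so productive and decay-bound isoforms of a member were not separated.

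Total counts per library ranged from 16589153 to 20842099. The libraries separated by treatment on the first principal component, which held 52.3% of the variance. Replicates differed by more than counting noise in each group, with chi-square values per degree of freedom between 5.48 and 10.7. Of the melanoma markers, SOX10, a lineage transcription factor, lay between 122 and 237 CPM (counts scaled to the library's TMM-adjusted size) in the 6 libraries. The pigment enzyme gene TYR was at or near 0 in all of them. Other pigment cell genes, PMEL, MLANA, TYRP1 and DCT, were also low, with no library above 2.45 CPM. MITF lay between 57.4 and 87.4 CPM, GPNMB between 52.4 and 187 CPM, and S100B, S100A1 and PAX3 between 1.82 and 17.4 CPM. Of 9 melanoma markers tested, 3 were called higher with palbociclib and 2 with GSK3326595 than with DMSO, and 0 lower. The marker counts in this paragraph stand beside the shares of all genes tested. These were 19.3% higher and 20.2% lower with palbociclib, and 8.58% higher and 10.2% lower with GSK3326595, each against DMSO. Blood cell markers summed to 90.8 and 83.2 CPM with palbociclib, 70.8 and 74.0 CPM with GSK3326595, and 96.8 and 89.5 CPM with DMSO. Most of this was CD68, a lysosomal protein of macrophages, which was called lower with both inhibitors, and LYZ, which encodes lysozyme, was called higher with palbociclib (13.8 CPM, against 4.58 CPM with DMSO), whereas PTPRC, CD3E and HBB did not exceed 0.117 CPM. With palbociclib, 2 of 5 tested epithelial markers and 2 of 6 tested fibroblast and endothelial markers were also called higher, and 3 of the 6 lower. With GSK3326595, 2 of these 6 were called higher and 0 lower, and 0 of the 5 epithelial markers were called. Epithelial markers summed to between 517 and 649 CPM per library. Most of this was KRT18, a keratin gene, at 465 to 598.5 CPM, which was not called in any comparison. Markers of cycling cells moved with both treatments. The summed level of the cycling markers was 813 and 906 CPM with palbociclib, 1440 and 1430 CPM with GSK3326595, and 2440 and 2770 CPM with DMSO, and all 10 markers were called lower in each inhibitor group than in DMSO. The part of these markers in the values below was not tested. In bulk RNA, fewer cells of a kind and less RNA per cell cannot be told apart.

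Of the 39 members, 33 passed the filter on low counts and were tested, 13 of the SR family and 20 of the hnRNP family. Most of them were lower with palbociclib. At an adjusted p under 0.05 (edgeR quasi-likelihood test, Benjamini-Hochberg adjustment over all 16381 genes tested, which is what called means throughout), 9 of 13 SR members and 18 of 20 hnRNP members were called lower with palbociclib than with DMSO. None was called higher by edgeR or by DESeq2, and none was higher at an unadjusted p under 0.05. Of all genes tested, 39.5% were called in that comparison, 20.2% lower and 19.3% higher. With GSK3326595, 1 SR member was called higher and 2 were called lower than with DMSO, and 2 hnRNP members were called lower by edgeR. Of all genes tested, 18.8% were called with GSK3326595, 8.58% higher and 10.2% lower, beside which stand the 2 of 13 SR and 2 of 20 hnRNP members called lower. The SR count called lower was 1 without GSK3326595 replicate 1 and 0 without any other library, and the hnRNP count was 0 without GSK3326595 replicate 1 or DMSO replicate 2. Both inhibitor comparisons use the same DMSO libraries, so the direct contrast of palbociclib with GSK3326595 was fitted as well, and in it 9 SR and 15 hnRNP members were called lower with palbociclib, where 34.8% of all genes were called, 18.2% lower and 16.6% higher. The hnRNP count was 8 without palbociclib replicate 1. No member was called higher in this contrast by edgeR or DESeq2, and none was higher at an unadjusted p under 0.05.

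The tested members are mostly abundant transcripts, which a test calls more easily. Of the 33 tested members, 32 averaged 30 CPM or more over all libraries. Among all genes at or above that level, 27.6% were called lower and 22.1% higher for palbociclib against DMSO, 14.6% lower and 10.8% higher for GSK3326595 against DMSO, and 25.8% lower and 19.3% higher for palbociclib against GSK3326595. This abundance bound was set after the values were seen. The median log2 fold change for palbociclib against DMSO was -0.67 in the SR family and -0.60 in the hnRNP family, beside -0.02 over all genes tested. For GSK3326595 against DMSO it was -0.08 in the SR family and -0.14 in the hnRNP family, beside a median of -0.0011 over all genes tested.

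**Figure D1:**
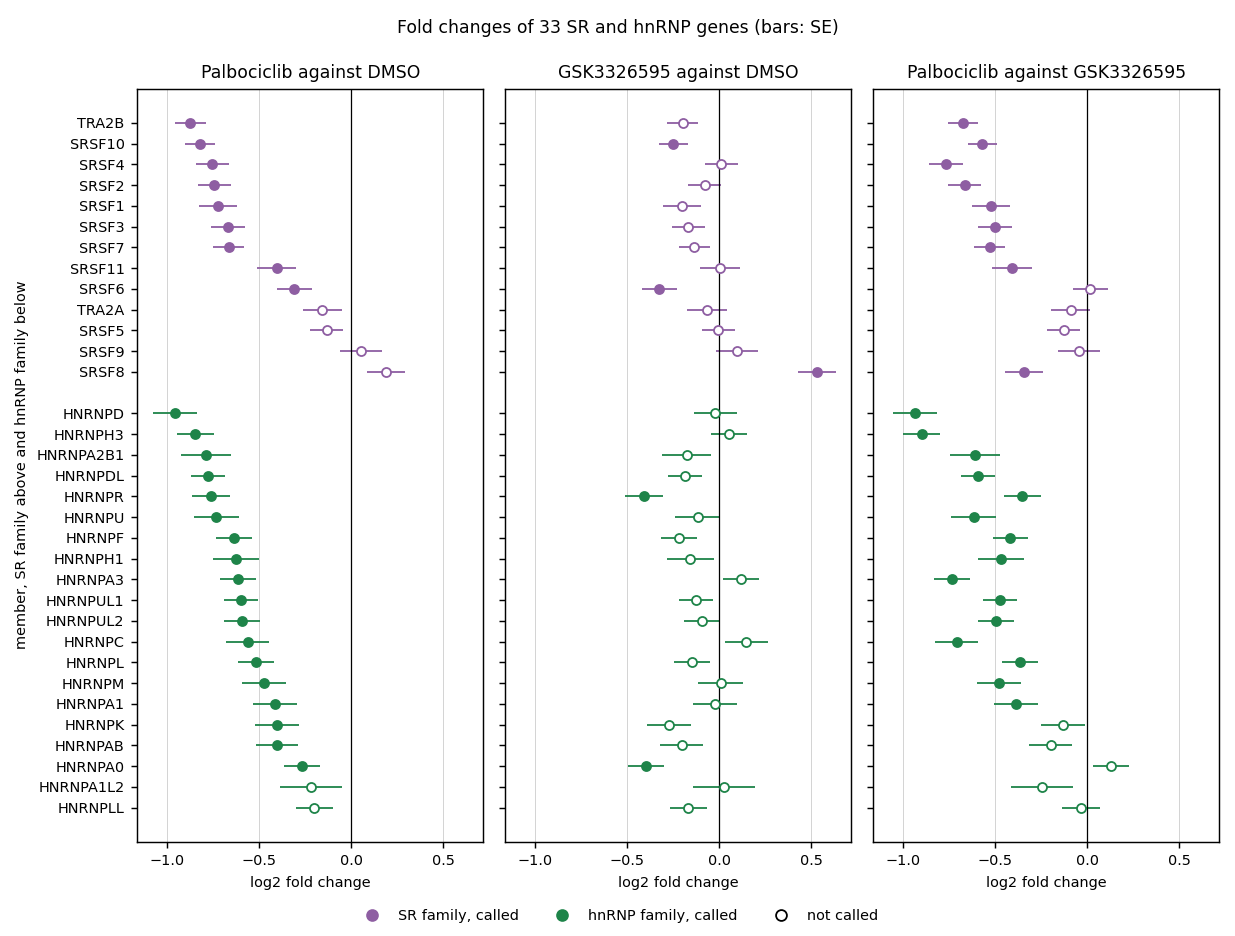
Log2 fold change (x axis, points, with bars of 1 SE) of the 33 tested members (rows, SR family above, hnRNP family below) in the 3 comparisons; filled points are called by edgeR at an adjusted p under 0.05. With palbociclib the called members lie between -0.96 and -0.27, whereas with GSK3326595 most members are open points near 0 and SRSF8 alone is called higher.

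Promoters are shown for the members with the most negative palbociclib fold changes in each family, TRA2B and SRSF10 of the SR family and HNRNPD of the hnRNP family, and for SRSF8, the single member called higher with GSK3326595. Each line gives the 250 bases before the annotated start from RefSeq (GRCh38.p14), read 5′ to 3′ on the gene's strand. They lie at chr3:185938015-185938264 (minus strand) for TRA2B, chr1:23980328-23980577 (minus strand) for SRSF10, chr4:82373992-82374241 (minus strand) for HNRNPD and chr11:95066627-95066876 (plus strand) for SRSF8. Capitals mark a spelling of the E2F element, the site through which E2F factors act on many cell cycle genes, as written or on the opposite strand.
TRA2B: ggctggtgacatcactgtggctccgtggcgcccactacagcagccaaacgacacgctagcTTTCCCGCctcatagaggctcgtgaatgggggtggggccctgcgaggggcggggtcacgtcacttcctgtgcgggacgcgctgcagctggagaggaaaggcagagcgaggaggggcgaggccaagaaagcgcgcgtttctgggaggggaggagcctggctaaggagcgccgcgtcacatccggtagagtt
SRSF10: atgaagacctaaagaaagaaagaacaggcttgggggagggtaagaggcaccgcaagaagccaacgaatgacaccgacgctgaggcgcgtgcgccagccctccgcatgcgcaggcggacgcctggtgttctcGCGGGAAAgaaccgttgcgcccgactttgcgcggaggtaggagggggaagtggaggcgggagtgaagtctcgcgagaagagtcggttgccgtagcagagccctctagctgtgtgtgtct
HNRNPD: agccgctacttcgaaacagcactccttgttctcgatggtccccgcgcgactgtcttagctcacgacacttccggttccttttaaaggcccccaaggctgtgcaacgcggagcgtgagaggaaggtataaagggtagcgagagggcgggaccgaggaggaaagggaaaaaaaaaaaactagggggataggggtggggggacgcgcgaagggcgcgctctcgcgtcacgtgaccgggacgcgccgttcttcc
SRSF8: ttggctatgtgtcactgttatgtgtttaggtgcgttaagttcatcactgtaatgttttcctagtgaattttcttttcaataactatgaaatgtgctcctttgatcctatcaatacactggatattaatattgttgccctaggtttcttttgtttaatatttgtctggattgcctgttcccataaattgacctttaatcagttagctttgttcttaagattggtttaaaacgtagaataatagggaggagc

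TRA2B holds the E2F spelling TTTCCCGC as written and SRSF10 holds it on the opposite strand, where it reads GCGGGAAA, whereas HNRNPD and SRSF8 hold none in this window. The SRSF8 sequence stands out in composition, with 33.6% G and C and 2 CpG dinucleotides, whereas the SR promoters had a median of 61.4% G and C and 23 CpG dinucleotides, and those of all tested genes a median of 63.6% and 19. SRSF8 is known as an intron-poor retrocopy of SRSF2, and the bases after its annotated start did not open a transcript of the reference used, so its window is less certain than the other 3.

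Promoter sequences were matched for 30 of the 33 tested members, and 5 motifs were searched on both strands. Some genes had several annotated windows, and a gene was counted if any of them held the motif. The 11 SR members had 14 windows, the 19 hnRNP members 30, and the 12466 tested genes 17978. The shares below were not adjusted for these unequal numbers. An E2F spelling (TTTCCCGC, TTTGGCGC, TTTCGCGC or TTTGCCGC) was present in 2 of 11 SR members and 4 of 19 hnRNP members (HNRNPA3, HNRNPK, HNRNPLL and HNRNPUL1), against 5.28% of the 12466 tested genes with a promoter. The cell cycle homology element TTTGAA, bound by repressor complexes of G2 and M phase genes, was present in 2 SR members and 1 hnRNP member, against 12.6% of genes. The families differed most in the CCAAT box (CCAAT), which was present in 2 of 11 SR members and 15 of 19 hnRNP members, against 40.9% of genes. The GC box (GGGCGG) was present in 4 SR and 16 hnRNP members, against 70.5% of genes, and the ETS site CCGGAAGT in 2 SR members and 1 hnRNP member, against 7.36%. The members holding an E2F spelling had palbociclib fold changes from the most negative of the SR family, in TRA2B, to the least negative of the hnRNP family, in HNRNPLL, which was not called. A match is a description of these letters and not evidence of binding.

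In the SR family, TRA2B and SRSF10 had the most negative fold changes with palbociclib. TRA2B (Gene ID 6434; GRCh38 chromosome 3, 185914558 to 185938014), a sequence-specific splicing activator whose tails resemble those of SR proteins, had 104 and 104 CPM with palbociclib, 161 and 170 CPM with GSK3326595, and 183 and 198 CPM with DMSO. Both palbociclib libraries lay far below the rest, and the GSK3326595 libraries lay between palbociclib and DMSO without overlap. Its log2 fold change for palbociclib against DMSO was -0.88 ± 0.0831 (SE; edgeR adjusted p = 8.13e-06), that is, it fell by 45.5%.

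SRSF10 (Gene ID 10772; chromosome 1, 23964347 to 23980327) encodes a regulator that turns into a splicing repressor when dephosphorylated. It had 83.4 and 77.5 CPM with palbociclib, 120 and 119 CPM with GSK3326595, and 143 and 141 CPM with DMSO. The 3 groups were ordered without overlap, and replicates were close together in each. On the log2 scale SRSF10 changed by -0.82 ± 0.0801 (SE; edgeR adjusted p = 9.99e-06) for palbociclib against DMSO and by -0.25 ± 0.0793 (edgeR adjusted p = 0.0455) for GSK3326595 against DMSO. Only the palbociclib call of SRSF10 was made in all 13 alternative settings; the GSK3326595 call was made in 3 of 13, and its adjusted p lay between 0.0941 and 0.145 when any of the 6 libraries was left out.

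SRSF4 (Gene ID 6429; chromosome 1, 29147743 to 29181900), a classical SR protein with a long arginine-serine tail, had 41.8 and 45.0 CPM with palbociclib, 72.5 and 75.2 CPM with GSK3326595, and 70.1 and 76.4 CPM with DMSO. The palbociclib libraries stood apart, whereas those of GSK3326595 and DMSO overlapped. Its log2 fold changes were -0.76 ± 0.0905 for palbociclib against DMSO (edgeR adjusted p = 4.99e-05) and 0.01 ± 0.089 for GSK3326595 against DMSO (edgeR adjusted p = 0.945).

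SRSF2 (Gene ID 6427; chromosome 17, 76734115 to 76737411), an exon definition factor that is recurrently mutated in myeloid cancers, had 150 and 154 CPM with palbociclib, 238 and 245 CPM with GSK3326595, and 238 and 271 CPM with DMSO. Palbociclib was again apart and the GSK3326595 and DMSO libraries overlapped. The log2 fold change of SRSF2 for palbociclib against DMSO was -0.74 ± 0.0895 (edgeR adjusted p = 5.09e-05). SRSF7 (Gene ID 6432; chromosome 2, 38743599 to 38751494), a zinc-knuckle SR protein that shuttles to the cytoplasm and takes part in mRNA export, had 93.6 and 94.5 CPM with palbociclib, 138 and 134 CPM with GSK3326595, and 141 and 158 CPM with DMSO. Its palbociclib libraries were the lowest and those of GSK3326595 lay just under those of DMSO. SRSF7 changed by -0.67 ± 0.0841 on the log2 scale (edgeR adjusted p = 7.33e-05) for palbociclib against DMSO.

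SRSF1, the founding SR protein and a known oncogene product, and SRSF3, a small SR protein that is another export adaptor, were also called lower with palbociclib than with DMSO. Their log2 fold changes were -0.72 ± 0.102 for SRSF1 (edgeR adjusted p = 0.000164) and -0.67 ± 0.0911 for SRSF3 (edgeR adjusted p = 0.000128). Falls of SRSF11 and SRSF6 were shallower. SRSF11, an SR-like protein that works with U2AF, had 120 and 111 CPM with palbociclib, 167 and 140 CPM with GSK3326595, and 166 and 141 CPM with DMSO. In each group its replicate 1 was the higher, and both palbociclib libraries stayed below all others. Its palbociclib fold change of -0.41 ± 0.108 (edgeR adjusted p = 0.0105) was not called without palbociclib replicate 2 (edgeR adjusted p = 0.102) or without DMSO replicate 1 (edgeR adjusted p = 0.0943).

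The remaining 4 tested SR members were not called with palbociclib. TRA2A, the paralogue of TRA2B, was at -0.16 ± 0.107 on the log2 scale (edgeR adjusted p = 0.261; 95% confidence interval -0.39 to 0.07), and its palbociclib and DMSO libraries overlapped. SRSF5, a classical SR protein, was at -0.13 ± 0.0904 (edgeR adjusted p = 0.262) with an interval from -0.33 to 0.06. SRSF9, a short-tailed relative of SRSF1, was at 0.05 ± 0.114 (edgeR adjusted p = 0.747), with an interval from -0.20 to 0.30. SRSF8 had its palbociclib libraries slightly above those of DMSO, with a log2 fold change of 0.19 ± 0.103 (edgeR adjusted p = 0.171). SRSF12 had 18 counts over the 6 libraries and was not tested.

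In the hnRNP family all 20 tested members had both palbociclib libraries below both DMSO libraries, as had 37.4% of all genes tested and 42.5% of those averaging 30 CPM or more. HNRNPD (Gene ID 3184; chromosome 4, 82352498 to 82373991), also known as AUF1, binds AU-rich elements and affects mRNA stability. It had 70.7 and 74.0 CPM with palbociclib, 123 and 154 CPM with GSK3326595, and 126 and 155 CPM with DMSO. The palbociclib values were close together, and the GSK3326595 and DMSO values overlapped almost fully. Its log2 fold change of -0.96 ± 0.12 for palbociclib against DMSO (edgeR adjusted p = 7.25e-05), a level that fell by 48.5%, was the most negative of all 33 members.

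HNRNPDL, the neighbouring paralogue of HNRNPD (Gene ID 9987; chromosome 4, 82422564 to 82430462), had 115 and 116 CPM with palbociclib, 165 and 184 CPM with GSK3326595, and 185 and 211 CPM with DMSO. Its GSK3326595 libraries lay below both DMSO libraries. HNRNPDL changed by -0.78 ± 0.0936 (edgeR adjusted p = 5.12e-05) with palbociclib against DMSO and by -0.18 ± 0.0928 (edgeR adjusted p = 0.192) with GSK3326595 against DMSO, both on the log2 scale.

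HNRNPH3 (Gene ID 3189; chromosome 10, 68331693 to 68343196), a shorter relative of the G-run binding proteins HNRNPH1 and HNRNPF, had 19.5 and 19.4 CPM with palbociclib, 35.9 and 36.8 CPM with GSK3326595, and 34.2 and 35.9 CPM with DMSO. The palbociclib libraries were clearly below the other 4, and the GSK3326595 libraries were at or slightly above those of DMSO. The log2 fold change of HNRNPH3 was -0.85 ± 0.1 for palbociclib against DMSO (edgeR adjusted p = 4.5e-05) and 0.05 ± 0.0975 for GSK3326595 against DMSO (edgeR adjusted p = 0.754). HNRNPF (Gene ID 3185; chromosome 10, 43385618 to 43409186), which binds G runs and regulates BCL-X splicing, had 190 and 203 CPM with palbociclib, 247 and 278 CPM with GSK3326595, and 289 and 322 CPM with DMSO. The groups of HNRNPF were ordered without overlap, with palbociclib lowest. Its palbociclib fold change was -0.64 ± 0.0964 on the log2 scale (edgeR adjusted p = 0.000286).

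HNRNPR (Gene ID 10236; chromosome 1, 23304688 to 23344284), a paralogue of SYNCRIP with arginine-glycine repeats, had 173 and 189 CPM with palbociclib, 218 and 244 CPM with GSK3326595, and 283 and 331 CPM with DMSO. Its 3 groups were ordered without overlap, and it was the only hnRNP member called lower in all 3 comparisons, although its call for palbociclib against GSK3326595 was lost without either palbociclib library or GSK3326595 replicate 2. The log2 fold change of HNRNPR was -0.76 ± 0.102 for palbociclib against DMSO (edgeR adjusted p = 0.000116).

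The A and B proteins form, with the C proteins, the core particles on nascent RNA, and often repress splice sites. HNRNPA2B1 was at -0.79 ± 0.135 with palbociclib against DMSO (log2; edgeR adjusted p = 0.000698), and HNRNPA3 at -0.62 ± 0.0969 (edgeR adjusted p = 0.00038). HNRNPC, whose U-tract binding shields cryptic exons of Alu elements, was at -0.56 ± 0.116 (edgeR adjusted p = 0.00236). HNRNPU, a nuclear scaffold protein also known as SAF-A, was at -0.73 ± 0.122 (edgeR adjusted p = 0.000571), and its relatives HNRNPUL1 and HNRNPUL2 were at -0.60 and -0.59. HNRNPH1, HNRNPL, which binds CA repeats, and HNRNPM were called at -0.63, -0.52 and -0.47.

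Several hnRNP calls with palbociclib depended on single libraries. The call nearest to the threshold, that of HNRNPA0 (edgeR adjusted p = 0.0448), is described further below. HNRNPA1 (-0.41 ± 0.119; edgeR adjusted p = 0.0159), a repressor that opposes SRSF1 at many exons, was not called without palbociclib replicate 1 (edgeR adjusted p = 0.18) or DMSO replicate 2 (edgeR adjusted p = 0.147). HNRNPAB (-0.40) and HNRNPM lost their calls without the same libraries, at edgeR adjusted p values of 0.16 and 0.165 for HNRNPAB and 0.0924 and 0.111 for HNRNPM. HNRNPK (-0.41), a poly(C)-binding protein, lost its call without either palbociclib library (edgeR adjusted p = 0.157 and 0.0524) or DMSO replicate 2 (edgeR adjusted p = 0.227). HNRNPA1L2 (-0.22) and HNRNPLL (-0.20), a regulator of CD45 splicing in lymphocytes, were not called, with edgeR adjusted p values of 0.32 and 0.129. Between 13 and 18 hnRNP members were called lower with palbociclib when 1 library was left out, and between 7 and 9 SR members.

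**Figure D2:**
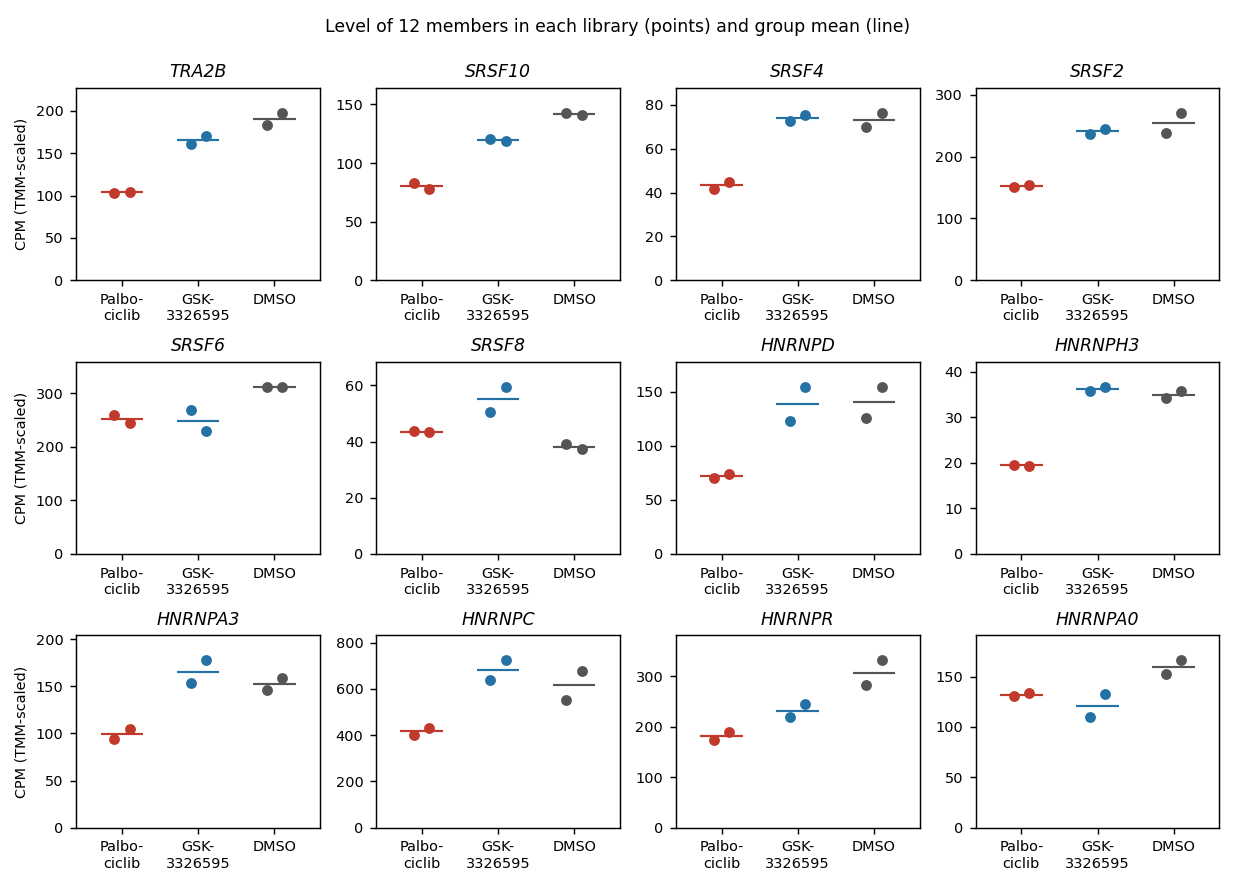
Level in CPM (y axis, linear from 0) of 12 members in each library, with palbociclib left, GSK3326595 in the middle and DMSO right; points are libraries and lines are group means. In 9 of the 12 panels both palbociclib libraries lie lowest, SRSF8 is highest with GSK3326595, and SRSF6 and HNRNPA0 are low with both inhibitors.

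With GSK3326595, 1 of the 33 tested members was called higher and 4 lower than with DMSO, where 8.58% and 10.2% of all genes tested were. Both GSK3326595 libraries lay below both DMSO libraries in 14 of the 33. This was so in 29.7% of all genes tested and in 33.2% of those averaging 30 CPM or more. SRSF8 (Gene ID 10929; chromosome 11, 95066877 to 95071225), an SR protein whose gene is a retrocopy, had 43.6 and 43.3 CPM with palbociclib, 50.7 and 59.5 CPM with GSK3326595, and 39.0 and 37.4 CPM with DMSO. All 3 groups were separate, with GSK3326595 highest and DMSO lowest. On the log2 scale SRSF8 changed by 0.53 ± 0.103 for GSK3326595 against DMSO (edgeR adjusted p = 0.00451), a call that was made in all 13 alternative settings, with adjusted p up to 0.0366. Reads shared with its parent SRSF2 could not be examined, because the handling of reads that map to several places is not given in the sources used here. SRSF2 itself was at -0.08 ± 0.0887 with GSK3326595 against DMSO (log2; edgeR adjusted p = 0.582).

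SRSF6 (Gene ID 6431; chromosome 20, 43457896 to 43464243), an SR protein that acts on tau exon choice, had 259 and 245 CPM with palbociclib, 268 and 230 CPM with GSK3326595, and 313 and 312 CPM with DMSO. The libraries of both inhibitors lay below DMSO and overlapped with each other. Its log2 fold change was -0.33 ± 0.095 for GSK3326595 (edgeR adjusted p = 0.0322) and -0.31 ± 0.0949 for palbociclib (edgeR adjusted p = 0.0212), each against DMSO. The GSK3326595 call of SRSF6 was lost when any library other than GSK3326595 replicate 1 was left out, with edgeR adjusted p from 0.0646 to 0.196. Its palbociclib call was lost without either palbociclib library (edgeR adjusted p = 0.0795 and 0.173) or either DMSO library (edgeR adjusted p = 0.0695 and 0.0957).

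HNRNPA0 (Gene ID 10949; chromosome 5, 137745651 to 137754363), an AU-rich element binder that is a substrate of the MK2 kinase, had 130 and 134 CPM with palbociclib, 110 and 132 CPM with GSK3326595, and 152 and 166 CPM with DMSO. Its DMSO libraries were the highest, and the inhibitor groups overlapped. HNRNPA0 changed by -0.40 ± 0.0982 with GSK3326595 (edgeR adjusted p = 0.0158) and by -0.27 ± 0.0976 with palbociclib (edgeR adjusted p = 0.0448), on the log2 scale against DMSO. The palbociclib call of HNRNPA0 was made in 6 of 13 settings and was lost without any of the 4 libraries compared (edgeR adjusted p from 0.0571 to 0.291).

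On the log2 scale HNRNPR changed by -0.41 ± 0.102 for GSK3326595 against DMSO (edgeR adjusted p = 0.0161), on the library values given above. The GSK3326595 calls of HNRNPR and HNRNPA0 were lost without GSK3326595 replicate 1 (edgeR adjusted p = 0.0678 for HNRNPR and 0.101 for HNRNPA0) or without DMSO replicate 2 (edgeR adjusted p = 0.138 and 0.105). No hnRNP member was called higher with GSK3326595 by edgeR or DESeq2, and none was higher at an unadjusted p under 0.05. The nearest was HNRNPC (Gene ID 3183; chromosome 14, 21209147 to 21269442), which had 400 and 432 CPM with palbociclib, 638 and 723 CPM with GSK3326595, and 554 and 676 CPM with DMSO. The GSK3326595 and DMSO libraries of HNRNPC overlapped and the palbociclib libraries were lowest. Its log2 fold change for GSK3326595 against DMSO was 0.15 ± 0.115 (edgeR adjusted p = 0.41), with a 95% confidence interval from -0.10 to 0.40.

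The other uncalled members had fold changes against DMSO between -0.27 (HNRNPK) and 0.12 (HNRNPA3) with GSK3326595 on the log2 scale. HNRNPA3 (Gene ID 220988; chromosome 2, 177212794 to 177223959), an hnRNP A relative, had 94.5 and 104 CPM with palbociclib, 153 and 178 CPM with GSK3326595, and 146 and 159 CPM with DMSO. HNRNPM (Gene ID 4670; chromosome 19, 8444975 to 8489114), which binds GU-rich introns and acts in alternative splicing during epithelial-mesenchymal transition, had 182 and 205 CPM with palbociclib, 242 and 298 CPM with GSK3326595, and 244 and 294 CPM with DMSO. In both genes the GSK3326595 and DMSO libraries overlapped and palbociclib was lowest. HNRNPM was at 0.0065 ± 0.12 on the log2 scale for GSK3326595 against DMSO (edgeR adjusted p = 0.98), and SRSF11 at 0.004 ± 0.108 (edgeR adjusted p = 0.985).

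The direct contrast of palbociclib with GSK3326595 tested whether the inhibitors differed for a member. HNRNPD (log2 fold change -0.94 ± 0.121, edgeR adjusted p = 0.000145) and HNRNPH3 (-0.90 ± 0.101, edgeR adjusted p = 6.13e-05) had the most negative values, followed by SRSF4 (-0.77 ± 0.0907, edgeR adjusted p = 9.12e-05), HNRNPA3 (-0.73 ± 0.097, edgeR adjusted p = 0.000167) and HNRNPC (-0.71 ± 0.116, edgeR adjusted p = 0.000697). In the SR family TRA2B was at -0.68 ± 0.0832 (edgeR adjusted p = 0.000111), SRSF2 at -0.67 ± 0.0895 (edgeR adjusted p = 0.000187) and SRSF10 at -0.57 ± 0.0803 (edgeR adjusted p = 0.000255). SRSF8 was lower with palbociclib than with GSK3326595 by a log2 fold change of -0.34 ± 0.102 (edgeR adjusted p = 0.0216), a call lost without either palbociclib library (edgeR adjusted p = 0.111 and 0.117) or without GSK3326595 replicate 2 (edgeR adjusted p = 0.17).

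SRSF6 and HNRNPA0, which were called lower with each inhibitor than with DMSO, showed no called difference between the inhibitors. SRSF6 was at 0.02 ± 0.095 for palbociclib against GSK3326595 (log2; edgeR adjusted p = 0.907), with a 95% confidence interval from -0.19 to 0.22. HNRNPA0 was at 0.13 ± 0.0983 (edgeR adjusted p = 0.345), with an interval from -0.09 to 0.34. HNRNPK was at -0.13 ± 0.119 (edgeR adjusted p = 0.422), with an interval from -0.39 to 0.13. The count of hnRNP members called lower with palbociclib than with GSK3326595 was 8 without palbociclib replicate 1, against 15 with all libraries, and the SR count stayed between 7 and 9 when any 1 library was left out.

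Summed over its members, each family made up a smaller part of the counted RNA with palbociclib. The SR sum was 1471 and 1478 CPM with palbociclib, 1956 and 2000 CPM with GSK3326595, and 2119 and 2246 CPM with DMSO. The hnRNP sum was 3921 and 4360 CPM with palbociclib, 5248 and 6134 CPM with GSK3326595, and 5726 and 6614 CPM with DMSO. Palbociclib libraries were lowest for both sums, and the GSK3326595 and DMSO libraries overlapped for the hnRNP sum only. The palbociclib means were 67.6% (SR) and 67.1% (hnRNP) of the DMSO means, and the GSK3326595 means were 90.6% (SR) and 92.2% (hnRNP) of them. The ratio of the hnRNP sum to the SR sum was 2.67 and 2.95 with palbociclib, 2.68 and 3.07 with GSK3326595, and 2.70 and 2.94 with DMSO. The 3 groups overlapped in this ratio, and replicate 2 was higher than replicate 1 in each. Sums over chosen members were given no test.

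**Figure D3:**
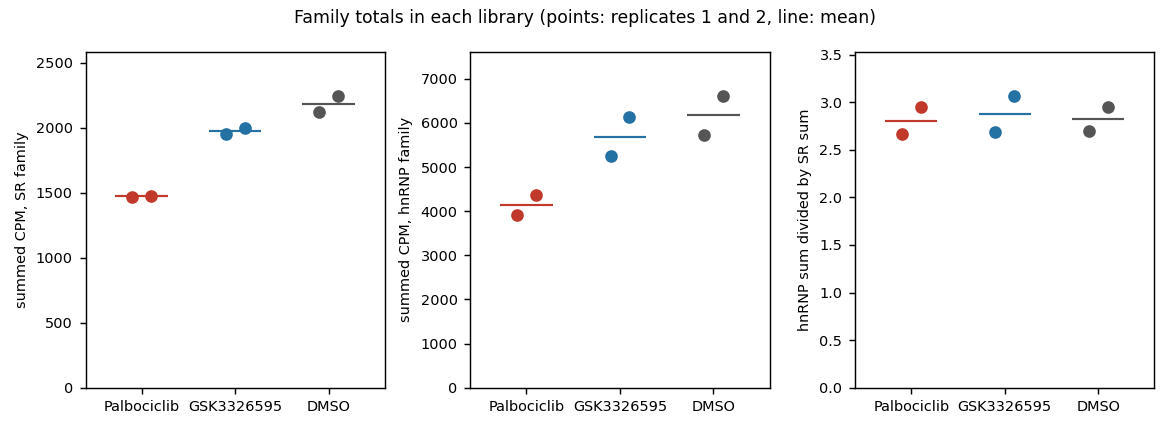
Summed CPM of the SR family (left) and of the hnRNP family (middle) and their ratio (right) in each library, with palbociclib, GSK3326595 and DMSO from left to right; points are replicates 1 and 2 and lines are means, on axes that start at 0. Both sums are lowest with palbociclib, at 67.6% and 67.1% of the DMSO means, whereas the ratio overlaps between groups.

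Replicate 2 exceeded replicate 1 in most hnRNP members of every group. This held for 17 of 20 tested hnRNP members with palbociclib, 18 of 20 with GSK3326595 and 20 of 20 with DMSO, whereas replicate 2 was higher in 49.3%, 50.2% and 49.1% of all genes tested in those groups. The median log2 ratio of replicate 2 to replicate 1 over hnRNP members was 0.12 with palbociclib, 0.20 with GSK3326595 and 0.18 with DMSO. In the SR family replicate 2 was the higher in 8, 7 and 8 of 13 members in the same order of groups. Compared between libraries of the same replicate number, all 20 hnRNP members were lower with palbociclib than with DMSO in replicate 1 and in replicate 2, with median log2 ratios of -0.57 and -0.62. For the SR family, 11 of 13 members were lower in each replicate number, with medians of -0.59 and -0.70. Of all genes tested, 51.8% were lower in replicate 1 and 50.3% in replicate 2. Whether the number marks a shared culture, day or run is not stated.

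**Figure D4:**
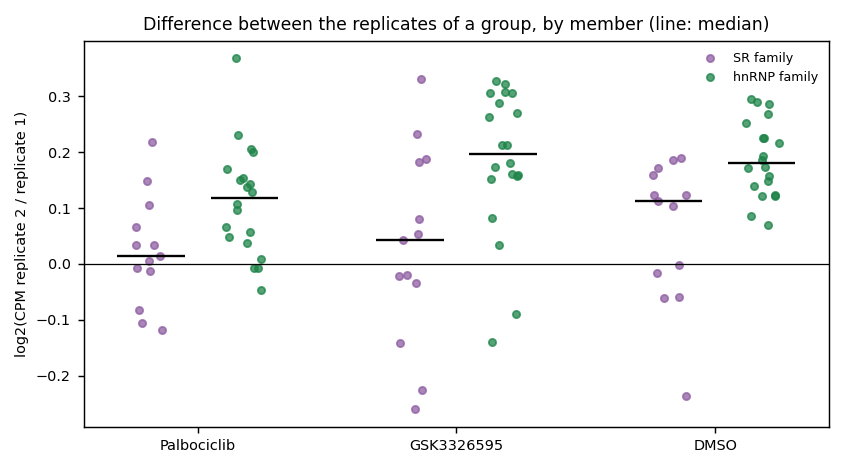
Log2 ratio of CPM in replicate 2 to replicate 1 (y axis) for each tested member, by group (palbociclib left, GSK3326595 middle, DMSO right) and family; each point is a gene and black lines are medians. The hnRNP points lie mostly above 0, with medians of 0.12, 0.20 and 0.18, and the SR points lie on both sides.

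Levels compared between genes were set per length as RPKM, from CPM and the joined exon length of each gene's coding transcripts. With DMSO, HNRNPC was the most abundant member at 341 ± 47.9 RPKM (SD, n = 2), followed by HNRNPK at 207 ± 29.3, HNRNPA1 at 168 ± 14.0, HNRNPL at 165 ± 14.1 and HNRNPA2B1 at 159 ± 14.5 RPKM. The first SR member was SRSF1, at 138 ± 12.8 RPKM, and the SR and hnRNP medians were 50.5 and 92.4 RPKM. HNRNPA1L2 was lowest at 5.47 ± 0.372 RPKM, next to SRSF8 at 9.48 ± 0.283 RPKM. DMSO libraries of neighbouring members in this order overlapped in 16 of 32 pairs, among them HNRNPA1, HNRNPL and HNRNPA2B1, so those positions were not resolved. The DMSO libraries of HNRNPC and HNRNPK did not overlap. The order also rests on the joined exon lengths, which were 1801 bases for HNRNPC and 4277 bases for HNRNPA1. By CPM, without length, HNRNPA1 had the highest DMSO mean at 716.5, and HNRNPC was at 614.5. With palbociclib and with GSK3326595, the first 10 members were the same as with DMSO.

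A total of 6 members fell below the filter. SRSF12, HNRNPH2, HNRNPCL1, HNRNPCL2, HNRNPCL3 and HNRNPCL4 had 18, 7, 4, 3, 1 and 0 counts over all 6 libraries. The low count of HNRNPH2 is not read as low expression, because the annotation holds a readthrough gene, RPL36A-HNRNPH2, over the same exons. That readthrough gene was at 0 in all libraries, and RPL36A had 111 to 240 counts per library where RPL36, another ribosomal protein gene, had 3298 to 4542. SRSF12 overlaps PM20D2, which had 4361 counts over all libraries, so its low count carries the same limit. SRSF9, SRSF2, SRSF4, HNRNPAB, HNRNPH3 and HNRNPK also overlap a named neighbour, HNRNPUL2 overlaps the readthrough gene HNRNPUL2-BSCL2 (2 counts), and SRSF1 and SRSF5 each overlap an uncharacterised locus with counts. Since the strand setting is not given in the sources used here, reads of such pairs cannot be told apart. Only 4 pseudogene IDs matching the rule were in the files, and the 2 of HNRNPA1 together had 0.495% of its counts. Other copies were not analysed here, so sharing of reads with them was not measured.

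Genes that act with the members were read from lists by role, at most 2 named per direction by the smallest p. Their counts stand beside the shares of all genes tested, 20.2% lower and 19.3% higher with palbociclib and 10.2% lower and 8.58% higher with GSK3326595, each against DMSO, or 27.6%, 22.1%, 14.6% and 10.8% in the same order among genes averaging 30 CPM or more. Among SR-related and junction proteins, 10 of 21 were called lower and 1 higher with palbociclib than with DMSO, with SRRM1, a splicing coactivator, at -0.59 ± 0.0813 (log2; edgeR adjusted p = 0.000145), SREK1 at -0.55 ± 0.119 (edgeR adjusted p = 0.00328), and RSRP1 called higher at 0.42 ± 0.104 (edgeR adjusted p = 0.00723). With GSK3326595, 2 of the 21 were called higher, a share close to that of all genes, namely CLASRP (0.76 ± 0.114, edgeR adjusted p = 0.000855) and CCNL2, which encodes cyclin L2 (0.60 ± 0.138, edgeR adjusted p = 0.0109). CLASRP, which binds CLK kinases, had 31.7 and 30.7 CPM with palbociclib, 73.0 and 63.1 CPM with GSK3326595, and 44.0 and 36.4 CPM with DMSO. The count called lower with palbociclib was 5 without either palbociclib library and 6 without DMSO replicate 2, RSRP1 was not called without DMSO replicate 1, and 1 of the 21 was called higher with GSK3326595 without DMSO replicate 2.

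Of 12 tested SR protein kinases and import factors, 6 were called lower and 1 higher with palbociclib. CLK2, which phosphorylates SR tails in the nucleus, was at -0.57 ± 0.106 (log2; edgeR adjusted p = 0.00118) and SRPK1, the main cytoplasmic SR kinase, at -0.36 ± 0.0812 (edgeR adjusted p = 0.00427). CLK1 and TNPO3, the import receptor, were at -0.31 ± 0.106 (edgeR adjusted p = 0.0363) and -0.23 ± 0.0824 (edgeR adjusted p = 0.0422), whereas CLK3 was called higher at 0.37 ± 0.097 (edgeR adjusted p = 0.00973). With GSK3326595, TNPO1, the import receptor of several hnRNP A proteins, was the only one called, at -0.29 ± 0.0917 (edgeR adjusted p = 0.0435), and this call was lost when any library other than DMSO replicate 1 was left out. The palbociclib count called lower was 2 without either palbociclib library and 1 without DMSO replicate 2, and no member was called higher without palbociclib replicate 1 or DMSO replicate 1.

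Proteins of the hnRNP class that carry other symbols were mostly lower with palbociclib than with DMSO as well, with 12 of 17 called lower and 1 higher. PTBP2, the neural polypyrimidine tract binder, had 10.9 and 11.1 CPM with palbociclib, 28.7 and 29.4 CPM with GSK3326595, and 25.0 and 24.7 CPM with DMSO (log2 fold change for palbociclib against DMSO -1.18 ± 0.109, edgeR adjusted p = 6.79e-06). RBMX, also called hnRNP G, was at -0.94 ± 0.0865 (edgeR adjusted p = 6.44e-06), and PCBP4 was called higher at 0.67 ± 0.0943 (edgeR adjusted p = 0.000166). With GSK3326595, 3 of 17 were called lower, among them SYNCRIP (-0.39 ± 0.102, edgeR adjusted p = 0.0203) and TAF15, an RNA-binding protein rich in arginine and glycine. TAF15 had 79.0 and 93.5 CPM with palbociclib, 47.6 and 47.8 CPM with GSK3326595, and 99.2 and 99.8 CPM with DMSO (log2 fold change for GSK3326595 against DMSO -1.06 ± 0.0954, edgeR adjusted p = 3.98e-05). Without GSK3326595 replicate 1 or DMSO replicate 2, 1 of the 17 was called lower with GSK3326595.

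Among other splicing regulators, only some of them tissue-specific, 14 of 25 were called lower with palbociclib. Those with the smallest p were SFPQ (-0.91 ± 0.0879, edgeR adjusted p = 9.19e-06) and QKI (-0.89 ± 0.0894, edgeR adjusted p = 1.3e-05). With GSK3326595, 5 were called lower, including QKI (-0.45 ± 0.0886, edgeR adjusted p = 0.0046), but 0 without DMSO replicate 2 and 3 without either palbociclib library, and the 1 called higher (RBFOX3) lost its call whichever library was left out or by DESeq2. The next list, U1 and U2 for short, holds proteins of the U1 and U2 snRNPs and of the branch site, among them U2AF2, DDX46 and DHX15. Of its 20 genes, 8 were called lower with palbociclib, fewer without palbociclib replicate 1, and 2 were called higher with GSK3326595. Those 2 were DDX46, a helicase of the branch site (0.61 ± 0.119, edgeR adjusted p = 0.00453), and SNRPC of U1 (0.41 ± 0.118, edgeR adjusted p = 0.0305). The U1 and U2 median log2 fold change was -0.30 with palbociclib and 0.24 with GSK3326595, and the count called higher with GSK3326595 was 10 without GSK3326595 replicate 1, 1 without GSK3326595 replicate 2 and 0 without DMSO replicate 1. Nonsense-mediated decay factors had 5 of 15 called lower with palbociclib, not far from the 27.6% of genes averaging 30 CPM or more (2 without palbociclib replicate 1, 8 without GSK3326595 replicate 2) and 1 with GSK3326595, SMG9, part of the SMG1 kinase complex, which was not called without GSK3326595 replicate 2 or DMSO replicate 1.

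Of 12 tested arginine methyltransferases and PRMT5 partners, 5 were called lower with palbociclib and 2 higher with GSK3326595. PRMT5, the target of GSK3326595, had 55.9 and 60.0 CPM with palbociclib, 86.2 and 99.9 CPM with GSK3326595, and 66.4 and 76.0 CPM with DMSO. Its transcript was called higher with GSK3326595 (log2 fold change 0.39 ± 0.101, edgeR adjusted p = 0.0205) and lower with palbociclib (-0.30 ± 0.102, edgeR adjusted p = 0.0358), each against DMSO. An enzyme inhibitor need not change the transcript of its target, so this is no check of the labels. WDR77, the PRMT5 partner also known as MEP50, was the other one called higher with GSK3326595 (0.45 ± 0.108, edgeR adjusted p = 0.0143). PRMT1, the main methyltransferase of hnRNP arginines, was called lower with palbociclib (-0.38 ± 0.0898, edgeR adjusted p = 0.00566). None of the 12 was called lower with palbociclib without palbociclib replicate 1 or DMSO replicate 2, and 1 was without palbociclib replicate 2. None was called higher with GSK3326595 without GSK3326595 replicate 2 or DMSO replicate 1, and 4 were without GSK3326595 replicate 1.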

How the data were processed

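RNA was sequenced from A375 cells in 3 groups of 2 libraries. The authors deposited raw read counts per NCBI Gene ID, without normalization, as 1 table per library, with totals from 16589153 to 20842099. Per the labels' protocols, total RNA was depleted of ribosomal RNA and made into TruSeq v2 libraries. Per the submitters' processing notes, build hg38 was used with HISAT2, featureCounts 1.6.2, cutadapt 1.7, CASAVA 1.8.2 and limma. Annotation, strand setting and treatment of multiply mapping reads are, in the sources used here, not given. Symbols, positions and promoters came from RefSeq GRCh38.p14, the same build as hg38 (27745 IDs matched, 650 did not and stayed in the totals and tests). Exon lengths came from GENCODE release 29 transcripts paired with a RefSeq mRNA.

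From these counts, edgeR 4.0.16 (R 4.3.3) tested 16381 genes kept by filterByExpr (minimum count 10), with TMM scaling, 1 coefficient per group and a two-sided quasi-likelihood F test with 3 residual degrees of freedom. Calls use an adjusted p under 0.05 (Benjamini-Hochberg over all genes tested). Each SE was derived as the size of the fold change on the log2 scale over the square root of F. Fitted fold changes differ slightly from ratios of the CPM means. The test was tried on simulated data before use.

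The members and lists were chosen with earlier results of these data known. Library values are given for the 5 called members with the smallest p per family, comparison and direction, for members called with 1 inhibitor and of opposite sign with the other, and, where a family has no call in a direction, for the uncalled member with the smallest p. From other lists at most 2 called genes per direction and comparison are named, besides PRMT1, PRMT5, CLK1, SRPK1 and TNPO3, named for their role. Markers are named apart from this rule. They are the 11 melanoma markers, KRT18, CD68, LYZ, PTPRC, CD3E and HBB, which were singled out after their values were seen. Calls and fold changes of members, and counts of genes called in all and in the lists other than markers, were recomputed under 13 alternatives. These varied scaling, filter, tool (DESeq2 1.42.0), block, libraries fitted and single libraries left out. Counts over the marker lists were not recomputed in this way, and the family sums only with library totals and without HNRNPA1. Intervals cover the spread between libraries only.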

Additional observations from a re-analysis of the deposited data

How the results depend on the processing

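Against DMSO, 7 to 9 SR and 13 to 18 hnRNP members were called lower with palbociclib when 1 library was left out, and each count stayed within 1.5 times the main one under all other alternatives. Against GSK3326595 the ranges were 7 to 9 SR and 8 to 16 hnRNP members. With GSK3326595 against DMSO, where 2 SR members were called lower, the count was 1 with DESeq2 size factors in edgeR, with DESeq2 and with no filter on low counts, 0 with only the 4 libraries compared, and 0 to 1 when 1 library was left out; for hnRNP members (2 called) it was 0 to 3. Genes called in all numbered 4007 to 7259 (palbociclib against DMSO), 1765 to 3230 (GSK3326595 against DMSO) and 3312 to 5542 (palbociclib against GSK3326595) when 1 library was left out. A group left with 1 library is assumed there to vary like the others. Apart from the smaller number of libraries, the cause was not tested.

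With the replicate number as a block, 5769 genes were called for GSK3326595 against DMSO (3081 without it), and 5 SR and 7 hnRNP members were called lower. Deviations of same-numbered libraries from their group means correlated at 0.179 for palbociclib and DMSO, 0.341 for GSK3326595 and DMSO and 0.14 for palbociclib and GSK3326595. With 2 numbers and no label that says what they mark, the libraries are taken to share only a number. The block moved no family count of the other comparisons by more than 1.5 times. In the lists it gave, for palbociclib against DMSO, 16 SR-related (10 without it), 13 U1 and U2 (8) and 9 decay genes (5) called lower. In that comparison it also gave 2 other splicing regulators (0) called higher. For GSK3326595 against DMSO it gave 8 hnRNP-class genes (3), 3 SR-related genes (0) and 3 kinase and import genes (1) called lower, and 11 U1 and U2 genes (2), 4 SR-related genes (2) and 4 methyltransferase genes (2) called higher. For palbociclib against GSK3326595 it gave 12 hnRNP-class genes called lower (7).

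Among the other list counts, methyltransferase genes called lower with palbociclib against DMSO numbered 3 with DESeq2 or its size factors (5 in the main analysis), and decay genes 8 with only the 4 libraries compared (5). With GSK3326595 against DMSO, other splicing regulators called lower numbered 3 with DESeq2 or the 4 libraries (5), and hnRNP-class genes 5 with library totals (3). In the same comparison TNPO1 was not called with DESeq2 size factors, no filter or the 4 libraries. With DESeq2, kinase and import genes called lower with palbociclib against DMSO numbered 4 (6 in the main analysis). For palbociclib against GSK3326595, DESeq2 gave 7 SR-related genes (10) and 4 methyltransferase genes (6) called lower. Further counts also moved and are not all listed here.

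Without HNRNPA1, the member with most pseudogene IDs in the files, the hnRNP sums were 3603 CPM (palbociclib), 4986 CPM (GSK3326595) and 5454 CPM (DMSO), and the ratios to the SR sum 2.44, 2.52 and 2.50 in the same groups.

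Direction changed only in members not called in that comparison. HNRNPM with GSK3326595 against DMSO was at -0.0024 with library totals. When 1 library was left out, log2 fold changes of GSK3326595 against DMSO ran from -0.13 to 0.13 in SRSF11, -0.19 to 0.017 in SRSF2, -0.074 to 0.075 in SRSF4, -0.077 to 0.063 in SRSF5, -0.080 to 0.25 in SRSF9, -0.17 to 0.022 in TRA2A, -0.16 to 0.10 in HNRNPA1, -0.068 to 0.096 in HNRNPA1L2, -0.015 to 0.30 in HNRNPC, -0.20 to 0.13 in HNRNPD, -0.0072 to 0.087 in HNRNPH3, -0.16 to 0.15 in HNRNPM and -0.28 to 0.027 in HNRNPU. For palbociclib against DMSO, SRSF9 ran from -0.023 to 0.14. For palbociclib against GSK3326595, SRSF6 ran from -0.089 to 0.15, SRSF9 from -0.19 to 0.13, TRA2A from -0.20 to 0.017 and HNRNPLL from -0.097 to 0.046.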
